A study of Mus musculus with 6 samples.

Results

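Integrins, laminins and the genes of the hemidesmosome were read in keratinocytes of mouse back-skin epidermis, with and without a Lef1 transgene. The genes were taken by name from the array annotation: integrin alpha and beta chains, laminin chains, the hemidesmosome genes Col17a1, Dst, Plec and Cd151, the nidogens, perlecan (Hspg2), dystroglycan (Dag1) and talin 1 (Tln1). Of 48 such symbols in the gene table, 36 were measured, among 11280 genes in all, and they were read by 946 probe sets. The other 12 were not analysed here. They include Lama3, an alpha chain of the laminin of the epidermal basement membrane, and also Lama5, Itga1, Itga4, Itgb8, Bcam, Fermt1 and Fermt2.

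The samples came from female mice, 9.5 weeks old, of C57BL6/CBA background. The 3 wild type samples were compared with 3 K14ΔNLef1 samples, from transgenic mice in which the keratin 14 promoter, active in basal keratinocytes, drives a Lef1 that lacks its N-terminal part. That part binds beta-catenin. The labels call the cells unfractionated and also mention sorting by flow cytometry before extraction. The labels do not name the founder line, and nothing says that samples of the same number belong together.

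Basal keratinocytes sit on a basement membrane of laminins, type IV collagen, nidogens and perlecan. Integrins are pairs of an alpha and a beta chain that bind this matrix, and most of those in epidermis share the beta 1 chain. The pair of alpha 6 and beta 4 chains is different: it anchors hemidesmosomes, where plectin and dystonin (Dst) link it to keratin filaments and collagen XVII (Col17a1) spans the membrane. A gene's value below averages the log2 intensities of its probe sets on 1 array. Differences are K14ΔNLef1 minus wild type on that log2 scale, intervals are 95% intervals of the fit for that gene alone, and values of different genes are not compared as levels.

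Lef1 read 5.80 to 7.02 on the wild type arrays and 11.11 to 11.24 on the K14ΔNLef1 arrays, a rise of 4.80 (SE 0.29, limma adjusted p of 4.02e-04). The 7 basal keratinocyte markers had a list mean of 10.36 to 10.50 in wild type and 10.22 to 10.60 in K14ΔNLef1. Of these, Krt5 and Krt14 were bright on all 6 arrays, while Bnc1 read 7.04 to 8.04. In K14ΔNLef1 4 of the 7 were lower. Krt15 and Trp63 were lower without overlap, by 0.36 and 0.34 (limma adjusted p of 0.444 and 0.512). Cdh3 was higher without overlap, by 0.82 (limma adjusted p of 0.17). Cdh3 passed without K14ΔNLef1 replicate 1 (limma adjusted p of 0.0233), where 1.02% of all genes rose. Suprabasal markers averaged 8.96 to 9.21 and 8.06 to 9.10, with the 8.06 on K14ΔNLef1 replicate 1. Of the 7 measured 5 were lower, where 57.2% of all genes were. Their median was -0.53, or 0.06 without that array. Krt77 fell by 1.97 (limma adjusted p of 0.0102), and by 1.73 without that array. Tgm3 and Lor were higher, by 1.14 and 0.45 (limma adjusted p of 0.129 and 0.708). K14ΔNLef1 replicate 1 stood apart, with a median log2 intensity of 7.27 over all probe sets against 7.57 to 7.67 on the other 5 arrays. Of the 18 genes of this group with a lower mean in K14ΔNLef1, 13 (72.2%) had their lowest value on that array, where 66.0% of all genes with a lower mean did. Results that rest on it are given without it too.

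None of the 36 genes passed the test over all genes with all 6 arrays. The test was limma with Benjamini-Hochberg adjustment at 0.05, under which 0.328% of all genes rose and 0.833% fell. At an unadjusted p under 0.05, 3 of the 36 were higher and 3 lower, where 4.21% and 7.58% of all genes were. The median difference of the 36 was -0.02 (18 higher, 18 lower), beside -0.05 over all genes, of which 42.8% were higher and 57.2% lower. Shifting all arrays to 1 median, or quantile normalizing them, moved the median of all genes to 0.055 and 0.056, with 43.4% and 42.7% of them lower. Differences ran from -1.26 for Itga2 to 0.94 for Itgae, and the standard errors from 0.16 to 0.40. The genotypes did not overlap in 12 of the 36 genes, 4 higher and 8 lower in K14ΔNLef1, where 6.91% and 11.8% of all genes were separated in these directions. By role, 6 of 8 matrix-binding alpha chains and 4 of 5 beta chains had a negative difference, all 8 leukocyte and platelet integrins a positive one, and the 6 laminin chains were divided 3 and 3.

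**Figure D1:**
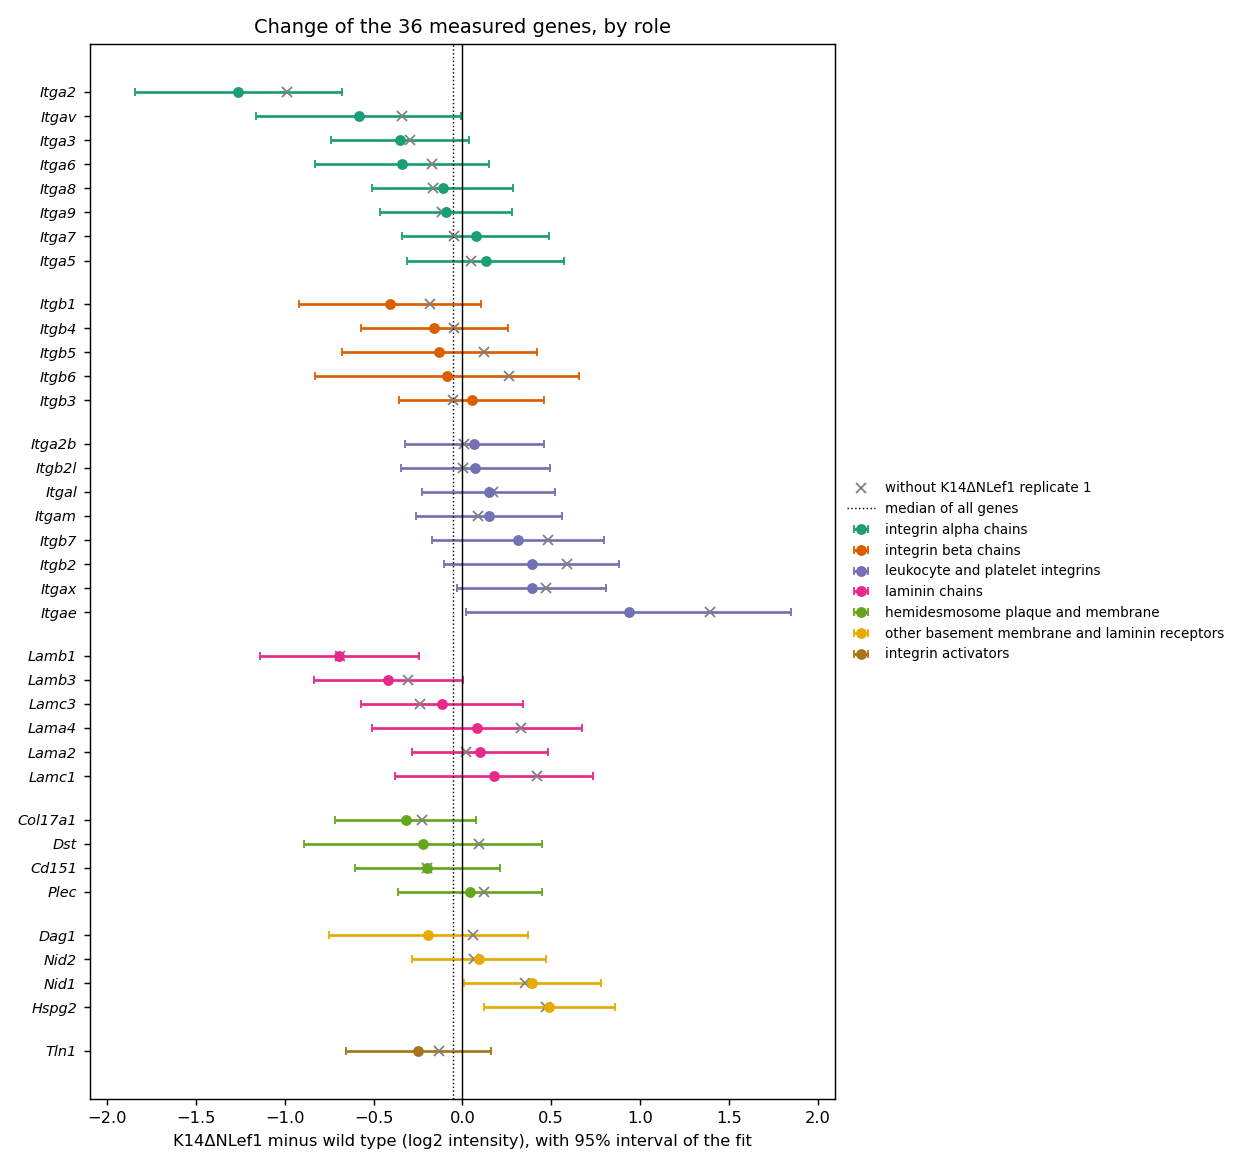
Difference between K14ΔNLef1 and wild type (log2 intensity, points) for the 36 genes by role, with the 95% interval of the fit; crosses give the difference without K14ΔNLef1 replicate 1 and the dotted line the median of all genes. Itga2 lies farthest to the left at -1.26 and Itgae farthest to the right at 0.94, and most intervals cross 0.

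Itga2 stood closest to the threshold. It encodes the alpha 2 chain, which pairs with beta 1 as a collagen receptor of basal keratinocytes. It read 9.16, 9.01 and 8.94 on wild type replicates 1, 2 and 3 and 7.23, 8.16 and 7.93 on the K14ΔNLef1 replicates. Every transgenic array was thus below every wild type array, by the widest margin on replicate 1. The means were 9.03 ± 0.11 and 7.77 ± 0.48 (SD, n = 3), a difference of -1.26 (SE 0.26, interval -1.85 to -0.68), or 2.40-fold lower, with a limma adjusted p of 0.0680. All 26 of its probe sets were lower, 20 of them without overlap between the genotypes, where 9.46% of all probe sets were lower in that way. Without K14ΔNLef1 replicate 1 the difference was -0.99 and the limma adjusted p 0.0295, where 1.1% of all genes fell. With array medians made equal it was -1.15 and 0.0247, where 1.18% of all genes fell and 0.913% rose. After quantile normalization it was -1.11 and 0.0306, where 0.993% fell and 0.789% rose. Itga2 was the 1 gene of the 36 that passed in any of these 3 fits; without K14ΔNLef1 replicate 1, 1.02% of all genes rose and 0 of the 36. With arrays weighted by their spread, 7 of the 36 passed (Itga2, Itgav and Lamb1 lower, Hspg2, Itgae, Itgb2 and Itgb7 higher), where 6.19% of all genes fell and 5.3% rose; that fit gave K14ΔNLef1 replicate 2 a weight of 5.18 and replicate 1 one of 0.15.

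The promoters of Itga2 and Lamb1, the pair with the smallest p, and of Dst are shown because the transgene encodes a DNA-binding protein. Lef1 and its Tcf relatives bind a core that can be written as CTTTG followed by AA, AT, TA or TT, and these 4 forms were searched on both strands. None of them can start where another does on the same strand. RefSeq promoter windows around a gene's start on GRCm38.p6 were found for 24 of the 36 genes, in 30 windows. Of these 1 (3.33%) held a form, where 16.9% of all 32851 windows did. That window belongs to Dst, with the match in capitals starting at -152 from the gene's start. The windows of Itga2 and Lamb1 held none. A match describes letters, not binding, and its absence speaks for this window alone.
Itga2, chr13:114932051-114932350, minus strand: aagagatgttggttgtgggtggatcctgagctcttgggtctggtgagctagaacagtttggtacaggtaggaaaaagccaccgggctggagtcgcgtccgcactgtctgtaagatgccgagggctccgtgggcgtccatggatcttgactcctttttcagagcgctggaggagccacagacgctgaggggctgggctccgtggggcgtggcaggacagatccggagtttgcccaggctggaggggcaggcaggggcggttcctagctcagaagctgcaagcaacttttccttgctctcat
Lamb1, chr12:31265043-31265342, plus strand: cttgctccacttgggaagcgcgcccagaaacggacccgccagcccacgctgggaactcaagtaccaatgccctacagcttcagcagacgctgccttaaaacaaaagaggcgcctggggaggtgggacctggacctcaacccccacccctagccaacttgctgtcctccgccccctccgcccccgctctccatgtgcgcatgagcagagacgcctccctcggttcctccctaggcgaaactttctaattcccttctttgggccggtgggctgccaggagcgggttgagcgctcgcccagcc
Dst, chr1:34011345-34011644, plus strand: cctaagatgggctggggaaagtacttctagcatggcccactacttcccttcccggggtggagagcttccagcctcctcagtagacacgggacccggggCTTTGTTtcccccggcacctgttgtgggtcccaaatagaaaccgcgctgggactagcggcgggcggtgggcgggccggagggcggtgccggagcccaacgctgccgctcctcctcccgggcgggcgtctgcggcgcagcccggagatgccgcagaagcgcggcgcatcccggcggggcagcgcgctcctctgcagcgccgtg

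The other matrix-binding alpha chains had smaller differences. Itgav, whose product pairs with several beta chains and binds RGD-bearing ligands such as vitronectin, read 9.30, 9.16 and 9.28 in wild type and 8.18, 8.66 and 9.14 in K14ΔNLef1. The transgenic arrays were spread out and the nearest of them lay just under the wild type range. Its difference was -0.58 (SE 0.25, limma adjusted p of 0.416), and -0.34 without K14ΔNLef1 replicate 1. Itga3, the alpha chain of the beta 1 laminin receptor of epidermis, read 8.24, 8.29 and 8.44 against 7.85, 7.97 and 8.08, again without overlap. Its difference of -0.35 (interval -0.74 to 0.03, limma adjusted p of 0.481) was -0.29 without that array. The remaining alpha chains, Itga5, Itga7, Itga8 and Itga9, differed by -0.11 to 0.13 with limma adjusted p of 0.845 to 0.909. Without K14ΔNLef1 replicate 1 the difference of Itga7 turned from 0.07 to -0.05, and that of Itga5 shrank to 0.05. Of 8 alpha chains 6 had a negative difference, 5 under either scaling of the arrays and 7 without K14ΔNLef1 replicate 1.

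Among the beta chains the largest difference was that of Itgb1, the shared partner. Itgb1 read 10.91, 10.86 and 10.92 in wild type and 10.05, 10.62 and 10.80 in K14ΔNLef1. The wild type arrays lay close together, the transgenic ones were all lower and replicate 1 lay farthest down. All 17 probe sets were lower, 4 of them without overlap, where 9.46% of all probe sets were lower in that way. At an unadjusted limma p under 0.05, 0 of the 17 were lower, where 5.33% of all probe sets were. The difference of -0.41 (SE 0.22, interval -0.92 to 0.11) had a limma adjusted p of 0.554 and shrank to -0.18 without K14ΔNLef1 replicate 1. Itgb5, a partner of alpha V, read 7.71, 7.75 and 7.80 against 7.12, 7.80 and 7.95, so that 1 array was far below and the other 2 at or above wild type. Its difference of -0.13 turned to 0.12 without that array. Itgb6, another partner of alpha V, which binds latent TGF-beta in epithelia, and Itgb3 differed by -0.09 and 0.05 (limma adjusted p of 0.943 and 0.941), and by 0.26 and -0.05 without K14ΔNLef1 replicate 1. Of the 5 beta chains 4 had a negative difference, and 3 under either scaling or without K14ΔNLef1 replicate 1.

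**Figure D2:**
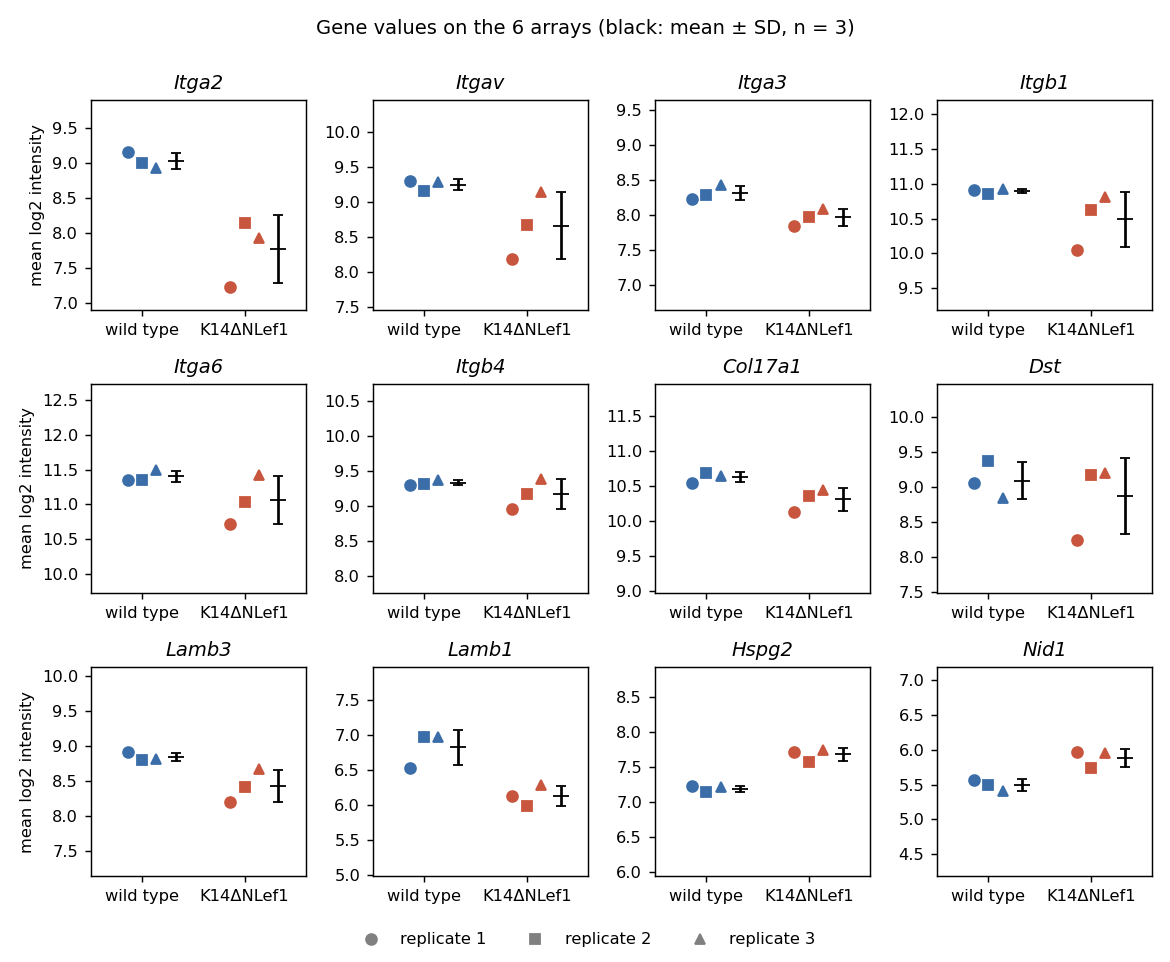
Mean log2 intensity of 12 genes on the 6 arrays, 1 panel a gene, each with a range of 3 log2 units; symbols mark the replicate number and black bars the mean ± SD (n = 3). In Itga2, Itgav, Itga3, Itgb1, Col17a1, Lamb3 and Lamb1 every K14ΔNLef1 array lies below every wild type array, and in Hspg2 and Nid1 above. K14ΔNLef1 replicate 1 is the lowest array in every panel except those of Lamb1, Hspg2 and Nid1.

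Both integrin chains of the hemidesmosome had negative differences with intervals that include 0. Itga6, the laminin-binding alpha chain of the hemidesmosome, read 11.35, 11.36 and 11.49 in wild type and 10.73, 11.04 and 11.42 in K14ΔNLef1. The third transgenic array lay inside the wild type range. The difference was -0.34 (SE 0.21, interval -0.83 to 0.15, limma adjusted p of 0.603), and -0.17 without K14ΔNLef1 replicate 1. All 22 probe sets of Itga6 were lower, 4 of them without overlap, where 9.46% of all probe sets were lower in that way. At an unadjusted limma p under 0.05, 0 of the 22 were lower, where 5.33% of all probe sets were. Its partner Itgb4 read 9.31, 9.32 and 9.37 against 8.95, 9.18 and 9.39. That is -0.16 (interval -0.57 to 0.25, limma adjusted p of 0.781), and -0.05 without K14ΔNLef1 replicate 1.

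Col17a1 was the 1 hemidesmosome gene whose genotypes did not overlap. It read 10.54, 10.68 and 10.65 in wild type and 10.12, 10.35 and 10.44 in K14ΔNLef1, with 38 of 40 probe sets lower. The difference was -0.32 (SE 0.17, limma adjusted p of 0.547), and -0.23 without K14ΔNLef1 replicate 1. Dst, which encodes the plaque protein that binds keratin filaments, spread widely in both groups, at 9.06, 9.38 and 8.84 against 8.24, 9.18 and 9.20. Its difference of -0.22 (SE 0.29) turned to 0.09 without the first transgenic array. Plec, the other plaque linker, read 7.46, 7.57 and 7.38 against 7.34, 7.48 and 7.70, a difference of 0.04 (interval -0.37 to 0.45). Its genotypes were interleaved. Cd151, a tetraspanin that associates with laminin-binding integrins, read 9.03, 8.70 and 8.95 against 8.70, 8.57 and 8.81, a difference of -0.20 (interval -0.61 to 0.21, limma adjusted p of 0.723).

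The laminin chains were divided. Lamb3, the beta chain of the epidermal laminin, read 8.91, 8.80 and 8.82 in wild type and 8.21, 8.41 and 8.67 in K14ΔNLef1, lower on each transgenic array. Its difference was -0.42 (SE 0.18, limma adjusted p of 0.431), -0.31 without K14ΔNLef1 replicate 1 and -0.27 after quantile normalization. Lamb1, a beta chain of laminins found in many basement membranes, read 6.53, 6.96 and 6.97 against 6.12, 5.99 and 6.28. This difference of -0.69 (SE 0.20, interval -1.14 to -0.24) had a limma adjusted p of 0.194. It did not rest on the array that stood apart, since it was -0.69 without it as well. Lamc1, the gamma chain that joins Lamb1 in those laminins, did not share the direction, at 7.94, 8.21 and 8.30 against 7.84, 8.55 and 8.58. Its difference was 0.18 (interval -0.38 to 0.73), and 0.42 without that array, with 26 of 29 probe sets higher. Lama2, Lama4 and Lamc3 differed by 0.10, 0.08 and -0.12, with limma adjusted p of 0.868 to 0.933. Without K14ΔNLef1 replicate 1 they differed by 0.02, 0.33 and -0.24.

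Of 4 other basement membrane genes 3 had a positive difference. Hspg2 encodes perlecan, a heparan sulfate proteoglycan of basement membranes. It read 7.22, 7.14 and 7.21 in wild type and 7.72, 7.57 and 7.74 in K14ΔNLef1, with a gap between the groups wider than the range of either. The difference was 0.49 (SE 0.16, interval 0.12 to 0.86), a ratio of 1.40, with a limma adjusted p of 0.274. It was 0.47 without K14ΔNLef1 replicate 1, and 70 of 79 probe sets were higher. Nid1, which encodes the nidogen that bridges laminin and type IV collagen, read 5.57, 5.49 and 5.40 against 5.97, 5.73 and 5.95. Its difference of 0.39 (SE 0.17) had a limma adjusted p of 0.414 and includes 1 probe set far above the others. From the brighter probe sets alone it was 0.08, and the gene is among the dimmest 25%. Nid2 differed by 0.09 (interval -0.29 to 0.47). Dag1, a laminin receptor linked to the cytoskeleton through dystrophin or utrophin, read 8.91, 8.75 and 8.96 against 8.18, 8.81 and 9.05, and its difference of -0.19 turned to 0.06 without the first transgenic array.

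Fibroblast and endothelial cells also make perlecan and nidogen. Of the fibroblast markers 8 of 10 were measured, with a list mean of 5.98 to 6.26 in wild type and 5.97 to 6.29 in K14ΔNLef1. Of the endothelial, pericyte and smooth muscle markers 10 of 11 were measured, with 5.95 to 6.19 and 6.05 to 6.41. None of either list passed. Of the 8 fibroblast markers 6 were higher, where 42.8% of all genes were, with a median of 0.135, or -0.003 without K14ΔNLef1 replicate 1. Lum, read by 1 probe set, and Col6a1 were lower without overlap, by 1.29 and 0.48 (limma adjusted p of 0.151 and 0.379). Dcn was higher without overlap, by 0.51. Of the 10 vascular and smooth muscle markers 7 were higher, with a median of 0.138. Without K14ΔNLef1 replicate 1 the median was 0.102 and 4 were lower. All 10 were higher under either scaling, where 43.4% and 42.7% of all genes were lower. The endothelial markers ran from -0.04 for Kdr to 0.31 for Cdh5, and Acta2 of smooth muscle differed by 1.04 (limma adjusted p of 0.314). Vwf, Myh11 and Pdgfrb were higher without overlap, by 0.185, 0.145 and 0.131 (limma adjusted p of 0.728 to 0.803), and none of the 10 was lower in that way. The part of these cells in the values of Hspg2 and Nid1 was not tested.

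All 8 integrins of leukocytes and platelets had positive differences, with a median of 0.23, and none passed the test. Itgae encodes the alpha E chain, which pairs with beta 7 and binds E-cadherin on keratinocytes. It read 6.81, 5.99 and 6.37 in wild type and 6.42, 7.95 and 7.62 in K14ΔNLef1. Replicates 2 and 3 were above all wild type arrays and replicate 1 was inside their range. The difference was 0.94 (SE 0.40, interval 0.02 to 1.85) with a limma adjusted p of 0.412, and 1.39 with 0.0510 without replicate 1. Itgb7, its partner, named after its values were seen, read 7.75, 7.42 and 7.53 against 7.53, 8.13 and 7.97, with the same arrays high.

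Itgb2, the beta chain shared by leukocyte integrins, was flat in wild type at 6.03, 6.06 and 6.06 and read 6.04, 6.75 and 6.53 in K14ΔNLef1. Its difference was 0.39 (limma adjusted p of 0.554), and 0.59 without replicate 1. Itgax, the alpha chain of dendritic cells, read 5.78, 6.14 and 5.88 against 6.16, 6.36 and 6.44. It was higher by 0.39 (SE 0.18, limma adjusted p of 0.472) with no overlap. Itgb2 and Itgax are both among the dimmest 25% of genes. The remaining 4 (Itgal, Itgam, Itga2b and Itgb2l) differed by 0.07 to 0.15, and by 0.00 to 0.17 without K14ΔNLef1 replicate 1. Markers of macrophages, monocytes and neutrophils, 9 of 10 measured, averaged 5.96 to 6.11 in wild type and 6.17 to 6.81 in K14ΔNLef1. Of the 9, 6 were higher, where 42.8% of all genes were, with a median of 0.21. The largest differences were 1.97 for S100a8 and 1.36 for S100a9. S100a8 read 9.14 on K14ΔNLef1 replicate 3 and 5.44 and 5.06 on replicates 1 and 2. C1qc, Csf3r and C1qb differed by -0.24, -0.06 and -0.04. None of the 9 passed. The part of these cells in the integrin values was not tested.

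K14ΔNLef1 replicates 2 and 3, the arrays highest in Itgae, Itgb7 and Itgb2, were also the highest in markers of T cells and Langerhans cells. For Itgam, Itga2b and Itgb2l, in contrast, replicate 1 was the highest transgenic array. T cell markers, of which 6 of 9 were measured, averaged -0.22, 1.36 and 0.61 from the wild type mean on K14ΔNLef1 replicates 1, 2 and 3. The wild type arrays lay at 0.42, -0.29 and -0.13. Langerhans cell markers, 7 of 8 measured, averaged -0.01, 1.45 and 0.87 against 0.45, -0.45 and -0.01 in wild type. The list means ran from 7.91 to 8.61 in wild type and 7.98 to 9.56 in K14ΔNLef1 for T cells, and from 7.03 to 7.93 and 7.47 to 8.93 for Langerhans cells. The defining markers Cd3d, Cd3e and Cd3g of T cells read at least 7.05, 9.10 and 9.43 on every array. Cd207 of Langerhans cells read at least 5.99, and its nearness to background was not tested. Cd28, among the dimmest 25% of genes, was lower by 0.26 and the other 5 T cell markers were higher. Epcam was lower by 0.07 and the other 6 Langerhans cell markers were higher, where 42.8% of all genes were higher. In bulk RNA more cells of a type and more RNA per cell cannot be told apart, and the part of cell number in these values was not tested.

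**Figure D3:**
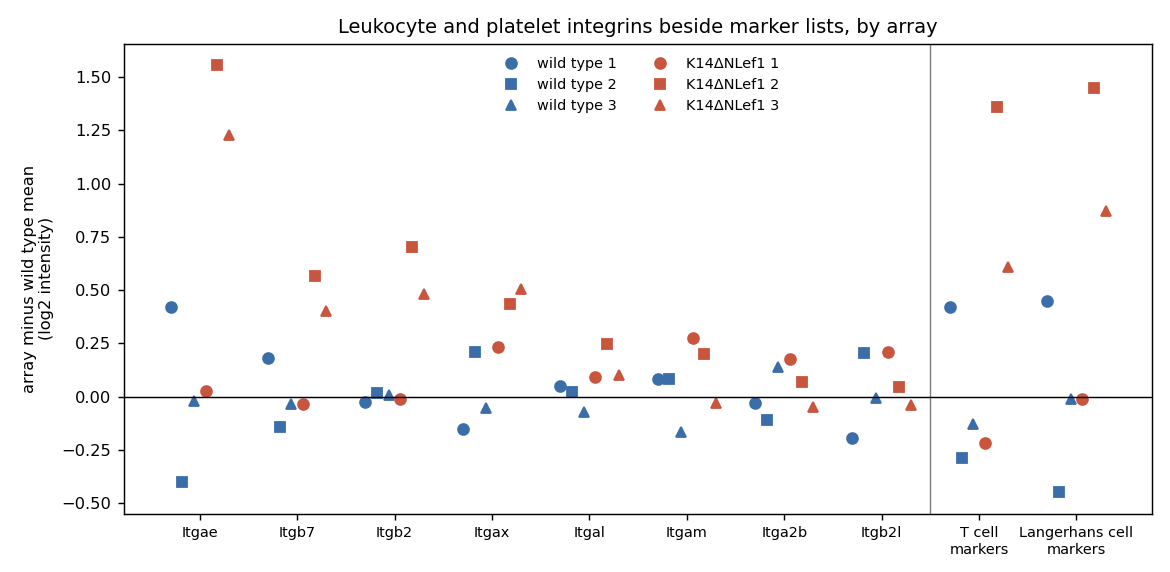
Distance of each array from the wild type mean (log2 intensity) for the 8 leukocyte and platelet integrins and, right of the line, for the means of the T cell and Langerhans cell marker lists. K14ΔNLef1 replicates 2 and 3 lie highest for Itgae, Itgb7, Itgb2 and both marker lists, while K14ΔNLef1 replicate 1 lies within the wild type range for each of these.

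Talin 1, which binds beta integrin tails and switches integrins to their active form, was the 1 activator measured. Tln1 read 7.87, 7.85 and 7.93 in wild type and 7.41, 7.70 and 7.80 in K14ΔNLef1, lower on every transgenic array. The difference was -0.25 (interval -0.66 to 0.16, limma adjusted p of 0.653), and -0.14 without K14ΔNLef1 replicate 1.

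The wider adhesion pathway was read from lists of genes outside this group. Of 21 measured genes of the integrin adhesion complex none passed, 16 had a negative difference and their median was -0.20. Over all genes 57.2% were lower. The mean of the list lay at -0.51, -0.15 and -0.04 from the wild type mean on K14ΔNLef1 replicates 1, 2 and 3. Without replicate 1, 13 were lower with a median of -0.08, where 5958 of all 11280 genes were lower. With all arrays, 1 was higher and 3 lower at an unadjusted p under 0.05, beside 4.21% and 7.58% of all genes. The smallest p belonged to Kank1, which encodes a talin-binding scaffold at the rim of adhesions. Kank1 read 9.16, 9.31 and 8.71 against 7.33, 7.77 and 8.17, a difference of -1.30 (SE 0.26, limma adjusted p of 0.0680). It passed after quantile normalization (limma adjusted p of 0.0361), where 0.993% of all genes fell. Without K14ΔNLef1 replicate 1 its difference was -1.09 (limma adjusted p of 0.0699). Next came Cav1, caveolin 1, at 11.25, 11.30 and 11.42 against 10.31, 10.39 and 10.79, without overlap, a difference of -0.82 (limma adjusted p of 0.112). Under either scaling 14 of the 21 were lower, with medians of -0.09 with array medians made equal and -0.04 after quantile normalization, where 43.4% and 42.7% of all genes were lower.

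Among 11 tetraspanins and other integrin-associated membrane proteins none passed with all arrays (1 higher and 2 lower at an unadjusted p under 0.05, beside 4.21% and 7.58% of all genes). Of them 8 were lower, beside 57.2% of all genes, and 5 under either scaling, beside 43.4% and 42.7%. Without K14ΔNLef1 replicate 1, 6 were lower, beside 5958 of all 11280 genes. Cd9, a tetraspanin partner of beta 1 integrins, read 10.59, 10.44 and 10.53 against 9.52, 10.04 and 10.17. Cd47, the integrin-associated protein, read 9.61, 9.34 and 9.42 against 8.36, 8.94 and 9.13. Both were lower on every transgenic array, with differences of -0.61 and -0.64 (limma adjusted p of 0.301 and 0.318), and of -0.42 each without K14ΔNLef1 replicate 1. Without K14ΔNLef1 replicate 1, the leukocyte tetraspanin Cd53, named after its values were seen, was higher by 1.71 (limma adjusted p of 0.0386). It was high on K14ΔNLef1 replicates 2 and 3, at 8.52 and 8.03, against 6.67 on replicate 1 and 6.12 to 7.02 in wild type.

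Of 22 other basement membrane and anchoring genes none passed (2 higher and 1 lower at an unadjusted p under 0.05, where 4.21% and 7.58% of all genes were). Of them 8 were lower, and 4 under either scaling, where 57.2%, 43.4% and 42.7% of all genes were lower as deposited, with equal medians and after quantile normalization. Sparc, a collagen-binding matricellular protein, read 9.04, 9.41 and 9.66 against 10.01, 10.27 and 10.60, and Fbln1, fibulin 1, 6.99, 6.49 and 6.76 against 7.68, 7.37 and 8.24. Both were higher on every transgenic array, by 0.92 and 1.02 (limma adjusted p of 0.145 and 0.147). Sparc passed after quantile normalization (limma adjusted p of 0.0317), where 0.789% of all genes rose. It did not pass without K14ΔNLef1 replicate 1 (difference of 1.06, limma adjusted p of 0.0682). Of 21 integrin ligands outside the basement membrane none passed (1 higher and 2 lower at an unadjusted p under 0.05, against the same shares of all genes). Of them 10 were lower, and 6 under either scaling. Fn1 encodes fibronectin, a ligand of alpha 5 and alpha V integrins. It read 8.07, 7.08 and 6.75 against 8.14, 9.11 and 8.96, a difference of 1.44 (SE 0.38, limma adjusted p of 0.164). It passed after quantile normalization (limma adjusted p of 0.0467), but not without K14ΔNLef1 replicate 1 (difference of 1.74, limma adjusted p of 0.0752). Adam9, a membrane protease whose disintegrin domain binds integrins, read 7.69, 8.02 and 8.10 against 7.02, 7.41 and 7.52, without overlap, a difference of -0.62 (limma adjusted p of 0.285). Of 7 genes around dystroglycan none passed (1 higher and 0 lower at an unadjusted p under 0.05, where 4.21% and 7.58% of all genes were). Sgce, epsilon-sarcoglycan, read 5.20, 5.28 and 5.34 against 5.80, 5.87 and 5.96, without overlap, a difference of 0.60 (limma adjusted p of 0.171). Sgce is among the dimmest 25% of genes. Utrn, utrophin, read 9.49, 9.55 and 9.23 against 8.11, 9.23 and 8.95, with overlapping genotypes. Its difference was -0.66 (limma adjusted p of 0.433), and -0.33 without K14ΔNLef1 replicate 1.

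An exon array reads a gene at several places, so the probe sets of a gene were also compared with each other. Of the 946 probe sets of these genes 1 passed and was higher (limma with Benjamini-Hochberg adjustment over all probe sets, under which 0.0692% rose and 0.121% fell). It was Itgae probe set 4476274, at 5.50, 4.32 and 4.56 in wild type and 7.59, 7.97 and 8.26 in K14ΔNLef1. It was high on all 3 transgenic arrays, replicate 1 included, where the gene value was not. The rise was 3.15 (SE 0.38, limma adjusted p of 0.0378), but with 1 array left out the adjusted p was 0.0599 to 0.213. At an unadjusted p under 0.05, 33 of the 946 probe sets were higher and 62 lower, where 2.79% and 5.33% of all probe sets were.

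Unequal change within a gene was found for Lamb1 and Nid1. The test was limma's diffSplice, under which 0.754% of 9818 genes passed. Lamb1 had an adjusted p of 0.00370. Of its 32 probe sets 10 were lower without overlap, where 9.46% of all probe sets were, and the differences ran from -2.88 to 0.39 with a median of -0.41. Probe set 4886277 read 8.12, 8.07 and 9.03 in wild type and 4.36, 6.11 and 6.10 in K14ΔNLef1. Probe set 5441023 read 8.51, 7.75 and 8.04 against 5.68, 5.26 and 6.46. By contrast probe set 4572030 read 8.41, 8.29 and 8.69 against 8.84, 8.77 and 8.26, with the genotypes overlapping. Where these probe sets lie along Lamb1 was not analysed here. The Lamb1 call held without K14ΔNLef1 replicate 2 or 3 and was lost without K14ΔNLef1 replicate 1 (adjusted p of 0.408) and without wild type replicate 1, 2 or 3 (0.122, 0.0534 and 0.581, diffSplice).

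In Nid1, 1 probe set lay far from the others. Probe set 5176776 read 3.71, 3.97 and 4.55 in wild type and 5.77, 8.09 and 7.98 in K14ΔNLef1, a difference of 3.20, while the median of the 16 probe sets was 0.24. The diffSplice adjusted p was 0.0372, and the unadjusted p was 0.857 with the dimmest 25% of all probe sets left out, where 4 probe sets remained. The diffSplice adjusted p was 2.52e-05 without K14ΔNLef1 replicate 1 and 0.255 to 0.683 with any other single array left out. Itga2 was the opposite case. Its 26 probe sets all lay between -2.26 and -0.64, with an unadjusted diffSplice p of 0.858.

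In Dst, a gene known for separate epithelial, neuronal and muscle isoforms, most of the 93 probe sets lay near a median of -0.10, but the lowest reached -3.04. That probe set, 4427728, read 7.56, 7.20 and 6.32 in wild type and 3.66, 3.14 and 5.15 in K14ΔNLef1, low on every transgenic array. Dst did not pass for unequal change with all arrays (diffSplice adjusted p of 0.791) and passed without K14ΔNLef1 replicate 1 (2.12e-04), where 1.43% of all genes did. Itga5 and Itgb7 also passed there.

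**Figure D4:**
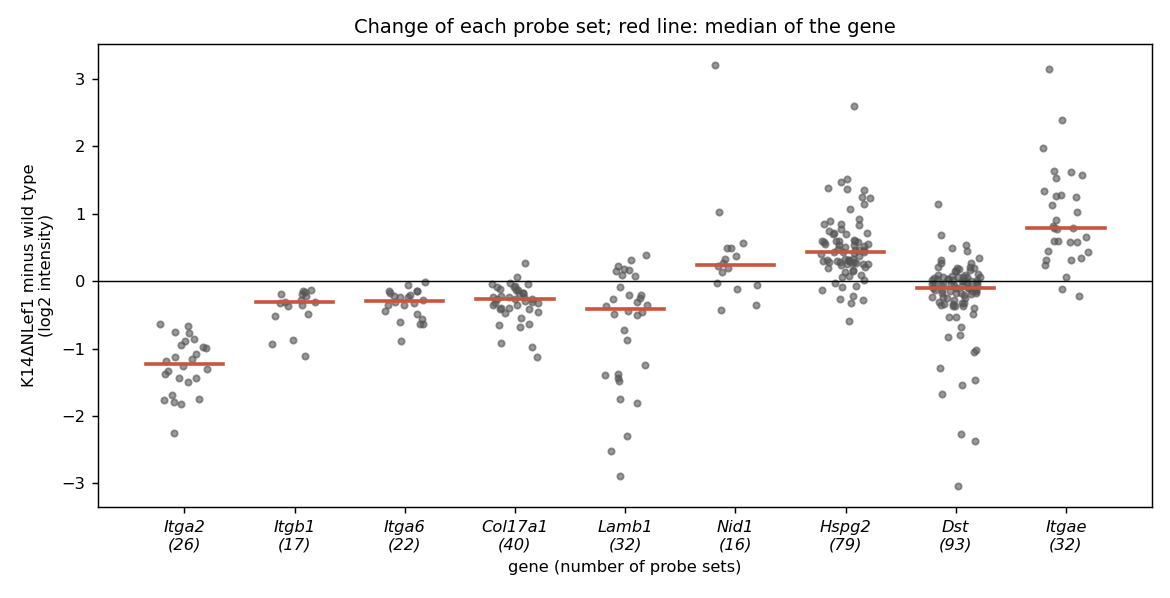
Difference between K14ΔNLef1 and wild type (log2 intensity) of every probe set of 9 genes, each point a probe set, with the red line at the median of the gene and the number of probe sets under its name. The points of Itga2, Itgb1 and Itga6 lie below 0 without exception, those of Lamb1 stretch from 0.39 to -2.88, and Nid1 has 1 probe set at 3.20 far from the others.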

How the data were processed

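Expression was measured on mouse exon arrays in 3 wild type and 3 K14ΔNLef1 samples, called biological replicates in the labels; where nothing says they came from separate mice, p-values measure only the spread between samples. The deposited table holds linear intensity values per probe set, made by the authors with RMA and Affymetrix Power Tools on mm9, per the submitters' processing notes; versions and filters are not given in the sources used here. Taking log2 of the intensity gave values of 5 decimals to within 7.2e-10.

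Of 114330 probe sets, 109751 had 1 gene symbol and were used. For 1228 symbols, older names were replaced through the GRCm38.p6 RefSeq gene table. A gene's value is the mean log2 of its probe sets, with no filter on low values. One laminin gene is not reported here. Tests used limma 3.58.1 in R 4.3.3 (lmFit, eBayes, two-sided, Benjamini-Hochberg over all genes or probe sets, threshold 0.05) and diffSplice in genes with at least 3 probe sets. The number of arrays limits precision. The tests were tested on simulated data; there diffSplice called more unchanged genes than its threshold states where probe sets differed in spread, so its calls are given with the probe sets' own values.

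The genes and lists were chosen with earlier results of these data known. Described with values on every array are the genes that passed, the 3 with the smallest p in each role and 12 hemidesmosome, laminin and integrin genes, of which 10 were measured; in each wider list, those that passed or the 2 with the smallest p. Python 3.11.15, pandas 2.3.3 and matplotlib 3.10.9 were used for reading and drawing.

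Samples sharing a replicate number did not deviate together: the correlations of their deviations from the genotype means over all genes were -0.163, -0.172 and 0.036 for numbers 1, 2 and 3.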

Additional observations from a re-analysis of the deposited data

How the results depend on the processing

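The alternatives were the median or the brighter ones of a gene's probe sets, dim genes left out, 2 scalings, 3 variance models, blocks, the array number as a covariate, each array left out and an adjusted p of 0.1, plus, chosen after seeing the data, K14ΔNLef1 replicate 1 left out with the others quantile normalized. The count of genes that fell went from 0 to 1 with the brighter probe sets and with either scaling. It did so too at an adjusted p of 0.1 and in the alternative chosen afterwards, each time for Itga2. Of all genes 0.984% fell with the brighter probe sets, 1.18% and 0.993% under the scalings and 1.13% in the alternative chosen afterwards. The share at an adjusted p of 0.1 was not analysed here. With 1 array left out the count of the 36 was 0 to 1, where 0.16% to 1.1% of all genes fell. None of the 36 rose there, where 0.0709% to 1.02% of all genes did. Itga2 kept its direction in all 18, from -1.45 to -0.93, and passed in 6. Array weights, which gave K14ΔNLef1 replicate 1 a weight of 0.15 and replicate 2 one of 5.18, called 4 higher (Hspg2, Itgae, Itgb2, Itgb7) and 3 lower (Itga2, Itgav, Lamb1) of the 36, where 5.3% and 6.19% of all genes were called. With dim probe sets left out, the Itgae probe set among them, and with the replicate block, 0 probe sets of the 36 genes rose. Of all probe sets 0.0923% and 0% did. With 1 array left out 0 to 1 rose and 0 fell; the 1, without K14ΔNLef1 replicate 1, was another probe set than that of Itgae above. Genes with unequal change were 2 with all arrays, where 0.754% of tested genes passed. They numbered 1 with dim probe sets left out, 1 after quantile normalization and 0 with the replicate block. There 0.746%, 0.733% and 0.479% of tested genes passed. With 1 array left out they numbered 0 to 4, where 0.306% to 1.43% of tested genes passed. Both the 4 and the 1.43% were without K14ΔNLef1 replicate 1. With replicate number as a block, 0 of the 36 genes passed, as without it, where 0.23% of all genes rose and 0.434% fell. Among the genes given on every array, differences that turned sign were those of Dag1 (0.057 without K14ΔNLef1 replicate 1, 0.084 in the alternative chosen afterwards), Dst (0.094 and 0.109, and 0.076 with array weights), Itgb5 (0.122 and 0.12, and 0.046 with array weights) and Plec (-0.004 without wild type replicate 3 and -0.056 without K14ΔNLef1 replicate 3). Over the arrays left out in turn, Dag1 ran from -0.377 to 0.057, Dst from -0.383 to 0.094, Itgb5 from -0.293 to 0.122 and Plec from -0.056 to 0.124. Among the others, 10 with differences of at most 0.13 in size turned sign in 1 to 6 alternatives: Itgb6 in 6, Itgb3 in 4, Itga7, Itga9 and Lama4 in 3, Itga2b, Itga5 and Itgb2l in 2, and Lama2 and Lamc3 in 1. The cause was not tested. Of the 36 genes 7 lie in the dimmest 25% of all genes, where nearness to background limits a difference. They are Itga8, Itgam, Itgax, Itgb2, Itgb3, Lama2 and Nid1.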
